A study of Homo sapiens with 8 samples.

Results

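The genes described here encode the machinery that removes the cap from mRNA and degrades the decapped message from its 5′ end: DCP1A, DCP1B, DCP2, EDC3, EDC4, PATL1, DDX6, LSM14A, XRN1 and EIF4ENIF1. They were chosen by symbol, as a list of 10 genes, and 9 of them were measured among 17179 gene symbols in all; DDX6 was not analysed here. Ribosome profiling reads out the short pieces of mRNA left inside ribosomes after nuclease digestion, and each count is a number of such footprints on a gene. The libraries came from 293T, a transformed human line of embryonic kidney origin that makes large T antigen of SV40. They formed 4 groups of 2 libraries: shNBD1, a hairpin RNA labelled as non-cleaving; its shRNA control; a treatment with miRNA inhibitors; and the inhibitor control. The labels name neither the inhibited miRNAs nor the sequence of the hairpin, and an NBD1 reporter is listed in every library. Per the design text, the question was how translation stood under either treatment.

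In cells, decapping commits most deadenylated mRNAs to destruction. DCP2 is the enzyme that cuts the cap, DCP1 proteins activate it, EDC3 and EDC4 are scaffolds and enhancers, and XRN1 digests the exposed message in the 5′-to-3′ direction. PATL1 links the Lsm1-7 ring on the mRNA end to the decapping enzyme, while LSM14A and EIF4ENIF1 (also called 4E-T) join repressed, capped mRNAs to the same granules. Silencing by miRNAs feeds into this route, since Argonaute and TNRC6 proteins recruit deadenylases and, through them, decapping.

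Total counts per library ran from 11218980 to 19854218. Levels are given as CPM, counts scaled to a common library size, and fold changes as log2 values with standard errors (SE), from edgeR's quasi-likelihood test fitted over all 8 libraries, with p-values adjusted by Benjamini-Hochberg over 13306 genes and a threshold of 0.05. Counts of the members ran from 152 to 4781 per library, so the counting error of a single value lay between 8.11% and 1.45%. No coding lengths were used, so levels are compared between libraries and never between genes. Without RNA libraries of the same cells, mRNA level and translation cannot be told apart in a footprint count. CPM are relative to the library, so neither the number of cells nor the total RNA per cell can be read from them. The labels do not say whether replicates are separate cultures, and the p-values therefore cover only how much these libraries vary, possibly for technical reasons. The median difference between replicates over all tested genes was 0.10 with shNBD1, 0.08 in the shRNA control, 0.17 with the inhibitors and 0.16 in the inhibitor control on the log2 scale. Of the 293T markers checked, VIM, a filament protein, had 3069 to 6152 CPM over the libraries. It was higher with shNBD1 than in its control (log2 fold change 0.76 ± 0.08, adjusted p = 0.000248, edgeR). NEFM, a neurofilament, had 12 to 28 counts and PAX2, a renal transcription factor, 20 to 62 counts. With shNBD1 NEFM stood at -0.52 ± 0.35 and PAX2 at -0.05 ± 0.25, and neither passed. Markers of other cell types summed to between 427 and 435 CPM with shNBD1 and between 375 and 405 CPM in the shRNA control, and to between 471 and 482 CPM with the inhibitors and between 559 and 587 CPM in the inhibitor control. Most of this was ACTA2, a smooth muscle actin (296 to 546 CPM), which was lower in the shRNA control than in the inhibitor control (-0.76 ± 0.07). CD68, a macrophage marker, went against the sum. It fell with shNBD1 (-0.51 ± 0.12, adjusted p = 0.017, edgeR) and was higher in the shRNA control than in the inhibitor control (1.51 ± 0.13). The other markers tested did not pass between the controls: COL1A1, a collagen, stood at 0.19 ± 0.24, KRT14, a keratin, at -1.66 ± 0.69 and PECAM1 at -0.79 ± 0.38. With the inhibitors COL1A1 stood at 0.58 ± 0.23 and ACTA2 at -0.32 ± 0.07, and neither passed. PTPRC, CD3E, ALB, KRT5 and VWF had no count in at least 1 library. The part of these markers in the results was not tested.

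DCP2, the decapping enzyme itself, had the fold change farthest from 0 of the 9 members with shNBD1. It had 48.9 and 46.7 CPM with shNBD1, against 93.6 and 95.3 CPM in the shRNA control. Both shNBD1 libraries lay far below both controls, and the replicates of each group differed little. Group means were 47.8 ± 1.54 CPM with shNBD1 and 94.4 ± 1.21 CPM in the shRNA control (SD, n = 2 each), or -0.98 ± 0.08 as a log2 fold change (adjusted p = 5.8e-05, edgeR's quasi-likelihood test). By p-value DCP2 held rank 31 of 13306 genes in this comparison. It had 71.8 and 63.5 CPM with the inhibitors, against 58.4 and 56.5 CPM in the inhibitor control. These groups did not overlap either, but the log2 fold change of 0.24 ± 0.08 did not pass the threshold (adjusted p = 0.188). Without both inhibitor control replicate 1 and inhibitors replicate 2, a choice made after seeing the data, it was 0.35 and passed (adjusted p = 0.016, edgeR), while under the other alternatives it lay between 0.13 and 0.31 and did not pass. The difference between the treatment effects on DCP2 was -1.22 ± 0.11 on the log2 scale (adjusted p = 0.000394), at rank 15 of all genes by p-value.

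The control groups also differed in DCP2. With 93.6 and 95.3 CPM the shRNA control stood above the inhibitor control, which had 58.4 and 56.5 CPM, which is 1.64-fold, or 0.72 ± 0.08 on the log2 scale (adjusted p = 0.000205, edgeR). In order of mean level the groups were the shRNA control (94.4 ± 1.21 CPM), the inhibitors (67.7 ± 5.85 CPM), the inhibitor control (57.4 ± 1.36 CPM) and shNBD1 (47.8 ± 1.54 CPM; SD, n = 2 each). Of these neighbours, the inhibitors and their control did not differ past the threshold, and the other neighbours, which belong to different arms, were not tested against each other. The range of DCP2 with shNBD1 lay below that of the inhibitor control by less than it lay below its own control. The shRNA control enters the shNBD1 comparison, the comparison of the controls and the difference between effects, so these values are not independent of each other. What else separated the arms cannot be told apart from the control treatments.

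**Figure D1:**
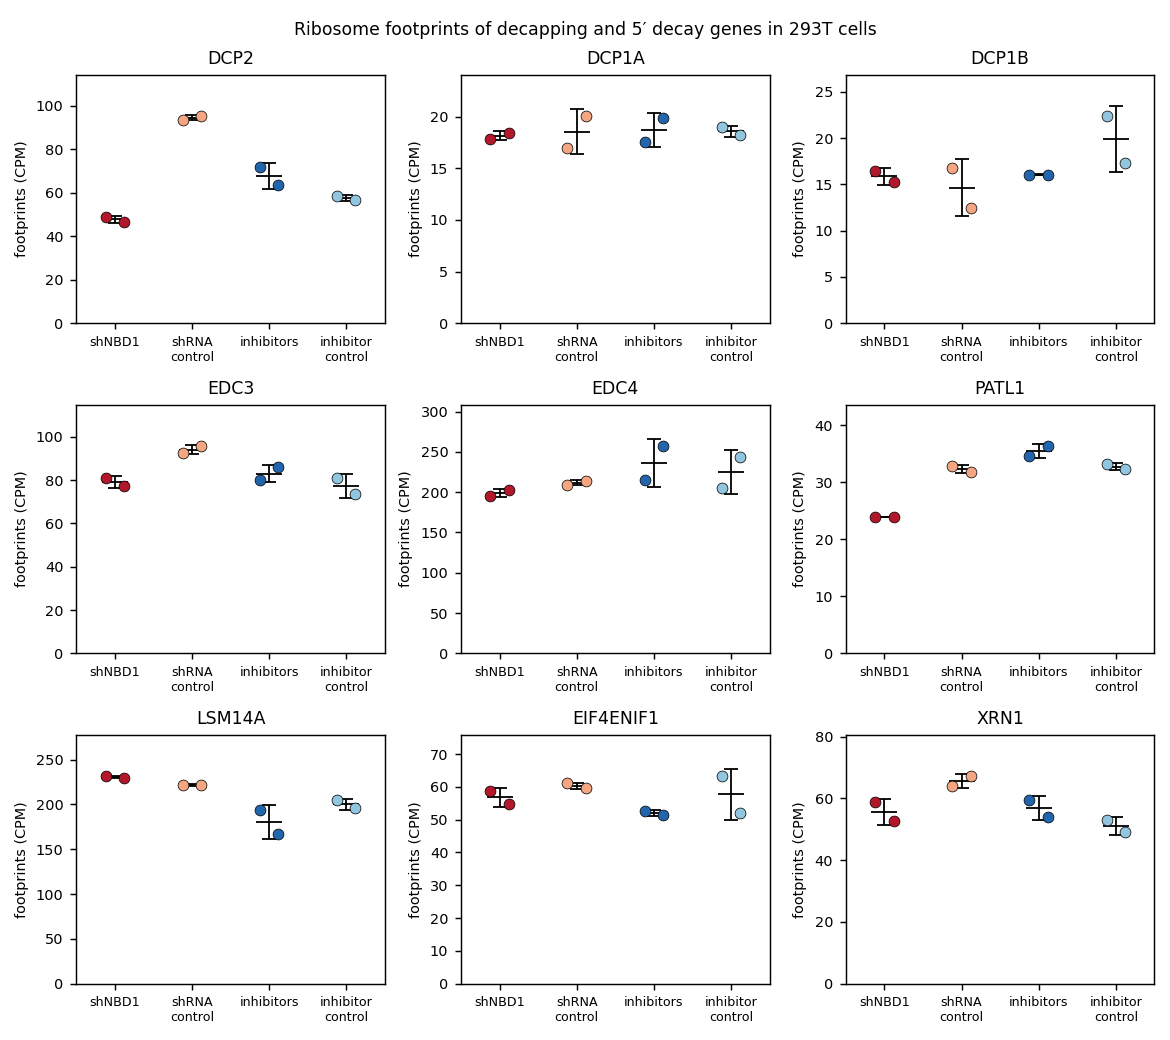
Footprints of the 9 measured members in CPM (vertical axes, from 0) in each library, by group; points are libraries, dashes the mean and bars the SD of 2 libraries. DCP2 has 48.9 and 46.7 CPM with shNBD1, against 93.6 and 95.3 CPM in the shRNA control, while the DCP1A points lie close together in all groups.

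The ratio of DCP2 to another member within a library does not depend on how libraries are scaled. There were 0.250 and 0.231 DCP2 counts per EDC4 count with shNBD1, against 0.447 and 0.445 in the shRNA control. Per DCP1A count there were 2.74 and 2.54 DCP2 counts with shNBD1, against 5.50 and 4.75 in the shRNA control. Both ratios were lower in each shNBD1 library than in either control library, which shows unequal change of the paired genes. With the inhibitors the ratio to EDC4 was 0.335 and 0.247, against 0.284 and 0.231 in their control, and these ranges overlapped. The ratio to DCP1A was 4.09 and 3.20 with the inhibitors, against 3.08 and 3.11 in the inhibitor control.

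Beside DCP2, the members PATL1 and EDC3 passed the threshold with shNBD1, so 3 of the 9 fell and none rose, where 18.3% of all tested genes were called, 9.15% lower and 9.18% higher. The promoters of these 3 genes are shown because they are the members that fell together. Each spans the annotated start, mostly upstream of it, as given by RefSeq for GRCh38.p14, 5′ to 3′ on the strand of the gene. DCP2 is at chr5:112976548-112976847 (plus strand), PATL1 at chr11:59668988-59669287 (minus strand) and EDC3 at chr15:74695975-74696274 (minus strand). Capitals mark the CCAAT box, the GC box with the letters GGGCGG and the ETS site with the letters CCGGAAG, on either strand, and no marked matches overlap.
DCP2: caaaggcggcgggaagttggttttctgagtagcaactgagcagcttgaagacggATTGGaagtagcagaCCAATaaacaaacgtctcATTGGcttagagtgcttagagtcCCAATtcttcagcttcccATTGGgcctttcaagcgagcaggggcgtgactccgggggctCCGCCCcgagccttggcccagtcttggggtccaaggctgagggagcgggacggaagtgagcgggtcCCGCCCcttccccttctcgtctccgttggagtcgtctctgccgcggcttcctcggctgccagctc
PATL1: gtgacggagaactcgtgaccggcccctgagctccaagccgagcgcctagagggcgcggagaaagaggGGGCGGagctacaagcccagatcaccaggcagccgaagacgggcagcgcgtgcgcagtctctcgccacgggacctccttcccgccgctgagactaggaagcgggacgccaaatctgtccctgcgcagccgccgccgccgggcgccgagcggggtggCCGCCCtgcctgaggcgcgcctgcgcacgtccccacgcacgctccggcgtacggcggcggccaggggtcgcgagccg
EDC3: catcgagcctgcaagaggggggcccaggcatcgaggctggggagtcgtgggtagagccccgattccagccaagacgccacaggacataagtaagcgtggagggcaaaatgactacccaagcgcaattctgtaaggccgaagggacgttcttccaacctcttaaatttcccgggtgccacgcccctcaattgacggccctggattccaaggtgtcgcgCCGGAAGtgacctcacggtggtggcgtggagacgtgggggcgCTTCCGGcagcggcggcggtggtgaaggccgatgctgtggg
The DCP2 promoter held 5 CCAAT matches and 2 GC boxes, that of PATL1 2 GC boxes, and that of EDC3 2 ETS sites, so the 3 share no marked motif. RefSeq promoters were matched for 8 of the 9 measured members. CCAAT was found in 1 of these 8 (DCP2) and in 34.6% of all 35116 promoters in the table, GGGCGG in 7 of 8 (all but EDC3) and in 45.0%, and CCGGAAG in 3 of 8 (DCP1B, EDC3 and EDC4) and in 10.3%. On either strand, AAGATGG (YY1) was found in DCP1A and DCP1B and in 5.84% of all promoters. Among the 8 promoters no match was found to the NRF1 site (1.24% of all), CACGTG (E-box, 7.26%), TGACGTCA (CRE, 1.85%), the ZBTB33 site (0.424%) or TATAAA (11.5%). The capitals were set for the first 3 motifs after the matches had been seen, and a match says nothing about binding.

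The DCP1 paralogs, which activate DCP2, did not pass the threshold with shNBD1, though small changes of either were not detectable. DCP1A had 17.8 and 18.4 CPM with shNBD1, against 17.0 and 20.1 CPM in the shRNA control, and the ranges overlapped (log2 fold change -0.03 ± 0.12, adjusted p = 0.902, edgeR). It had 17.6 and 19.9 CPM with the inhibitors, against 19.0 and 18.2 CPM in the inhibitor control. Over all 8 libraries the highest DCP1A value was 1.18 times the lowest, the narrowest range of the 9 members, while that of DCP2 was 2.04 times. DCP1B, the less studied paralog, had 16.5 and 15.2 CPM with shNBD1, against 16.8 and 12.4 CPM in the shRNA control. With the inhibitors it had 16.1 and 16.0 CPM, against 22.4 and 17.4 CPM in the inhibitor control (-0.31 ± 0.16 on the log2 scale, adjusted p = 0.351). Between the controls the DCP1B fold change was -0.43 ± 0.16 (adjusted p = 0.0643). It stood at -0.68 without shRNA control replicate 1, -0.25 without shRNA control replicate 2 and -0.24 without inhibitor control replicate 1, and passed under 5 of 19 alternatives, the replicate block among them (adjusted p = 0.0122). The SE of DCP1B was the largest among the members in each comparison, and its replicates in the shRNA control and in the inhibitor control lay wide apart. DCP1A counts per DCP1B count were 1.08 and 1.21 with shNBD1, against 1.01 and 1.61 in the shRNA control, and 1.09 and 1.24 with the inhibitors, against 0.847 and 1.05 in the inhibitor control.

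Of the enhancers of decapping, EDC3 fell with shNBD1 and EDC4 did not pass the threshold. EDC3, a scaffold that binds DCP2 and promotes assembly of P-bodies, had 81.1 and 77.2 CPM with shNBD1, against 92.6 and 95.7 CPM in the shRNA control. The ranges did not overlap, and the log2 fold change was -0.25 ± 0.08 (adjusted p = 0.0469, edgeR). This call lay close to the threshold. It was lost with DESeq2 (adjusted p = 0.11), with upper-quartile scaling, without the filter on low counts and without the most abundant 2 genes. It was also lost without any single library of the arm. Over all fits without a single library the fold change ran from -0.29 to -0.21. With the inhibitors EDC3 had 80.1 and 86.0 CPM, against 81.1 and 73.6 CPM in the inhibitor control, with overlapping ranges. Between the controls, EDC3 was higher in the shRNA control by 0.28 ± 0.08 (adjusted p = 0.0213), a call lost without either shRNA control library or without inhibitor control replicate 2 (adjusted p up to 0.154). The shNBD1 values of EDC3 thus lay within the range of the inhibitor arm. EDC4, the large scaffold that holds DCP1 and DCP2 together, had 195 and 202 CPM with shNBD1, against 209.5 and 214 CPM in the shRNA control (log2 fold change -0.09 ± 0.10, adjusted p = 0.564). In the inhibitor arm its replicates spread more, with 215 and 257 CPM with the inhibitors, against 205 and 244 CPM in their control.

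PATL1, the bridge from the Lsm1-7 ring to the decapping enzyme, had 24.0 and 23.9 CPM with shNBD1, against 32.8 and 31.8 CPM in the shRNA control. The log2 fold change was -0.43 ± 0.09 (adjusted p = 0.00745, edgeR). With the inhibitors PATL1 had 34.6 and 36.3 CPM, against 33.1 and 32.3 CPM in the inhibitor control (0.11 ± 0.08, adjusted p = 0.514). Unlike DCP2, PATL1 stood at a like level in both controls, with a log2 fold change of -0.02 ± 0.08 between them (adjusted p = 0.89), and both shNBD1 libraries were below the other 6. The treatment effects on PATL1 differed by -0.55 ± 0.12 (adjusted p = 0.0229). The shNBD1 call of PATL1 was lost without any single library of its arm (adjusted p up to 0.0982), with fold changes from -0.45 to -0.40 in these fits. The call on the difference was likewise lost without any single library of that arm (adjusted p up to 0.152), and with DESeq2 (0.0622).

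LSM14A and EIF4ENIF1, which act on repressed mRNAs upstream of decapping, passed in no comparison. LSM14A was counted under a pair of gene identifiers, ENSG00000257103 and ENSG00000262860. The first took between 47.7% and 51.9% of its counts in every library. Reads may have been split between copies of the same sequence, which was not tested, and the level given is the sum. LSM14A had 231 and 229 CPM with shNBD1, against 222 and 221 CPM in the shRNA control (0.06 ± 0.08 on the log2 scale, adjusted p = 0.655, edgeR). It had 194 and 167 CPM with the inhibitors, against 205 and 196 CPM in their control (-0.15 ± 0.08, adjusted p = 0.369). In both comparisons the ranges did not overlap. EIF4ENIF1, which binds the cap-binding protein eIF4E, had 58.9 and 54.7 CPM with shNBD1, against 61.0 and 59.7 CPM in the shRNA control (-0.09 ± 0.10, adjusted p = 0.56). With the inhibitors it had 52.6 and 51.4 CPM, against 63.2 and 52.2 CPM in the inhibitor control (-0.15 ± 0.10, adjusted p = 0.46).

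XRN1, the exonuclease at the end of the route, had 58.7 and 52.7 CPM with shNBD1, against 63.9 and 67.1 CPM in the shRNA control. The ranges did not overlap, but the log2 fold change of -0.23 ± 0.09 did not pass (adjusted p = 0.0899, edgeR). It passed with the replicate number as a block, with the 4 libraries of the comparison alone and without both inhibitor control replicate 1 and inhibitors replicate 2 (adjusted p down to 0.00553), and under none of the other 16 alternatives (up to 0.48). XRN1 had 59.6 and 54.1 CPM with the inhibitors, against 53.0 and 49.1 CPM in the inhibitor control (0.16 ± 0.09, adjusted p = 0.386). The difference between the effects was -0.39 ± 0.12 (adjusted p = 0.081). Between the controls XRN1 was higher in the shRNA control by 0.36 ± 0.09 (adjusted p = 0.0127), a call that held under 16 of 19 alternatives (adjusted p up to 0.118). In order of mean level the groups were the shRNA control (65.5 ± 2.29 CPM), the inhibitors (56.8 ± 3.88 CPM), shNBD1 (55.7 ± 4.19 CPM) and the inhibitor control (51.0 ± 2.80 CPM; SD, n = 2 each).

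**Figure D2:**
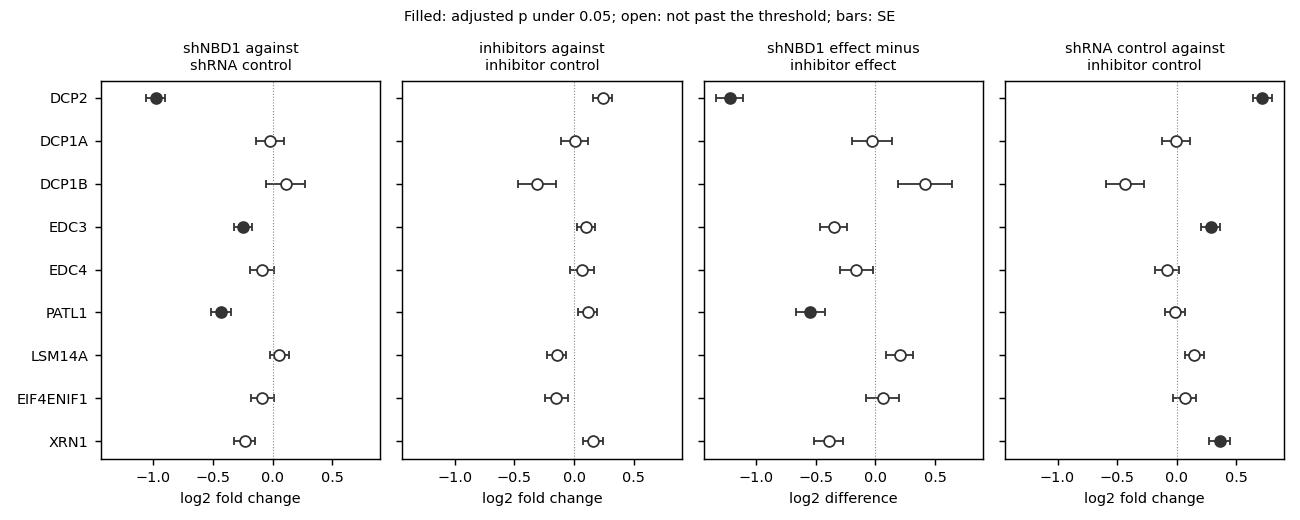
Log2 fold change (horizontal axes, with SE) of the 9 members in the shNBD1, inhibitor and control comparisons, and how far the treatment effects differ, on the same scale; filled points passed an adjusted p of 0.05. DCP2 stands at -0.98 with shNBD1 and 0.24 with the inhibitors, and no member passed in the inhibitor comparison.

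Over the members as a whole, 3 fell and 0 rose with shNBD1, with a median log2 fold change of -0.09 against 0.00 over all tested genes. The groups did not overlap for 7 of the 9, 6 of them lower with shNBD1, where 69.0% of all genes did not overlap and 34.3% were lower without overlap. With the inhibitors none of the 9 passed edgeR's quasi-likelihood test, where 0.120% of all genes were called, 0.0827% lower and 0.0376% higher. Only DCP2 had an unadjusted p under 0.05 in that comparison. DESeq2 called none in that comparison either. The median was 0.07 against 0.01 over all genes, and 5 of 9 did not overlap, 2 of them lower, where 40.8% of all genes did not and 20.3% were lower without overlap. The effects of the treatments differed for 2 of 9, DCP2 and PATL1, where 7.44% of all genes were called, 3.96% below 0 and 3.48% above. Between the controls 3 of 9 (DCP2, XRN1 and EDC3) were called, all higher in the shRNA control, where 27.1% of all genes were called, 13.5% higher and 13.6% lower. The control groups did not overlap for 5 of 9, 1 of them lower in the shRNA control, where 67.1% of all genes did not and 33.4% were lower without overlap. Counted in either direction, the share of members called between the controls was near the background. By direction, 3 of 9 were called higher and 0 lower, where 13.5% and 13.6% of all genes were.

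Factors that work beside the members moved in both directions. The share of all tested genes called was 18.3% with shNBD1 and 27.1% between the controls, and the counts of the lists stand against these. Of the 11 list genes named below as called with shNBD1, CPEB4 and CNOT11 passed under all 19 alternatives. The other 9 lost their call without at least 2 of the 4 libraries of that arm, and PNRC2, PNRC1, LSM7, CNOT8, DIS3 and EXOSC5 without any one of them. PNRC1 passed under 11 of 19 (adjusted p up to 0.264) and CNOT8 under 14 of 19 (up to 0.286). The cofactor list holds decapping cofactors, enzymes that clear caps or act on cap-related substrates, cap-binding proteins and the exonuclease XRN2. Of its 9 tested genes, PNRC2, which links nonsense-mediated decay to DCP1, rose with shNBD1. It had 52.1 and 49.7 CPM with shNBD1, against 40.5 and 37.8 CPM in the shRNA control (0.38 ± 0.09, adjusted p = 0.0203, edgeR). Its relative PNRC1, a nuclear receptor coactivator, fell by 0.26 ± 0.08 (adjusted p = 0.0463), with 90.4 and 90.1 CPM with shNBD1 against 109 and 107 CPM in the shRNA control. The 9 had a median of -0.02. With the inhibitors none passed, and the smallest p-values belonged to PNRC1 (-0.19 ± 0.08, adjusted p = 0.275) and NUDT16, a decapping enzyme of the Nudix family (0.26 ± 0.15, adjusted p = 0.409). None of the 9 passed for the difference, where PNRC2 had 0.32 (adjusted p = 0.159) and EIF4E, the cap-binding protein, -0.21 (adjusted p = 0.353). Between the controls PNRC1 (0.54 ± 0.08) and DXO, a decapping enzyme for faulty caps (0.39 ± 0.11), were higher in the shRNA control, and PNRC2 was lower (-0.47 ± 0.09). Of 19 alternatives, PNRC1 passed under 19, PNRC2 under 18 and DXO under 14. DXO was counted under 6 identifiers, which were summed.

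Of the 7 subunits of the Lsm1-7 ring, which binds oligoadenylated mRNA ends, LSM3 fell and LSM7 rose with shNBD1. LSM3 had 52.9 and 52.1 CPM with shNBD1, against 70.4 and 69.1 CPM in the shRNA control (-0.41 ± 0.07, adjusted p = 0.00368, edgeR). LSM7 had 68.7 and 68.4 CPM with shNBD1, against 57.2 and 52.4 CPM in the shRNA control (0.32 ± 0.08, adjusted p = 0.0174). The other 5 subunits did not pass, and the median of the 7 was -0.03. With the inhibitors none passed, and LSM4 (-0.18 ± 0.07, adjusted p = 0.249) and LSM2 (-0.09 ± 0.08, adjusted p = 0.607) had the smallest p-values. The effects on LSM3 differed by -0.38 ± 0.10 (adjusted p = 0.0468), a call that held under 6 of 18 alternatives and was lost with DESeq2 and without 7 of the 8 single libraries (adjusted p up to 0.235). Between the controls LSM7 was lower (-0.54 ± 0.08) and LSM2 higher (0.45 ± 0.08) in the shRNA control. LSM2 was counted under 6 gene identifiers, which were summed.

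Of the 13 tested genes in the recruiter list, 2 fell and 1 rose with shNBD1, near the share over all genes. The list holds factors that bring decay to particular mRNAs and other mRNA-binding regulators, and not all of them recruit decapping. CPEB4, which binds cytoplasmic polyadenylation elements, had 12.7 and 11.6 CPM with shNBD1, against 22.6 and 21.1 CPM in the shRNA control (-0.84 ± 0.11, adjusted p = 0.000869, edgeR). ZFP36L1, which binds AU-rich elements, had 19.8 and 24.6 CPM with shNBD1, against 29.8 and 31.4 CPM in the shRNA control (-0.46 ± 0.11, adjusted p = 0.0177). IGF2BP1, an oncofetal mRNA-binding protein, had 313 and 314 CPM with shNBD1, against 241 and 242 CPM in the shRNA control (0.38 ± 0.07, adjusted p = 0.00546). With the inhibitors none passed, and PUM2, a Pumilio repressor, stood at -0.48 ± 0.12 (adjusted p = 0.121) and RC3H2, a Roquin protein, at -0.31 ± 0.15 (adjusted p = 0.314). The effects on CPEB4 differed by -0.95 ± 0.15 (adjusted p = 0.00563), a call lost without shRNA control replicate 1 or shNBD1 replicate 2 (adjusted p up to 0.0568). Between the controls CPEB4 was higher (0.37 ± 0.10, adjusted p = 0.0225) and ZFP36L1 lower (-0.42 ± 0.10) in the shRNA control. Of 19 alternatives, the CPEB4 call held under 15 and that of ZFP36L1 under 17.

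**Figure D3:**
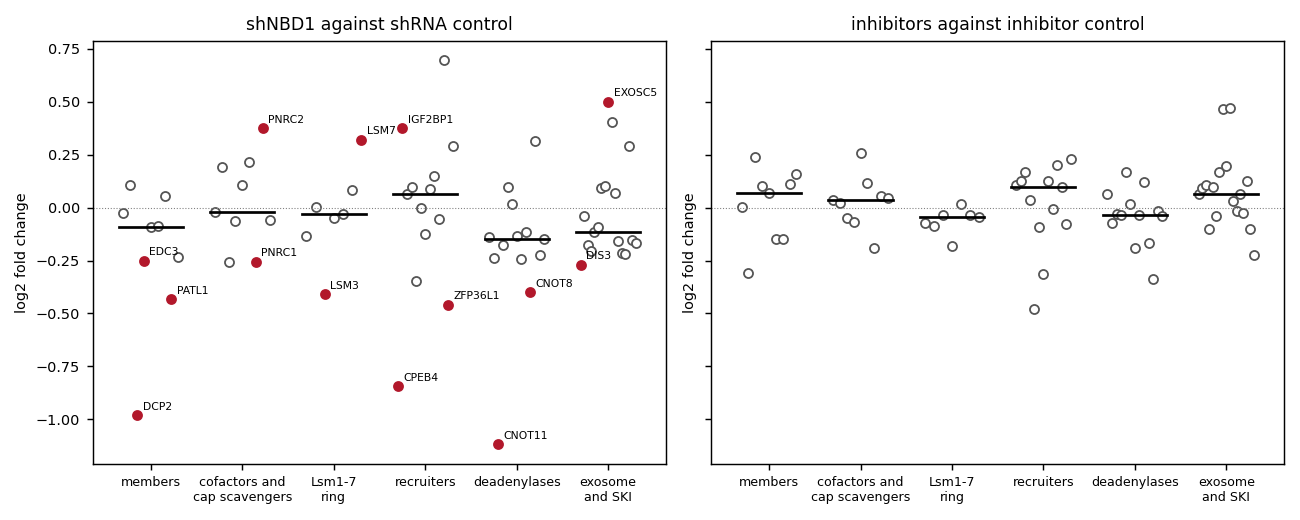
Log2 fold change (vertical axes) of each tested gene of the member list and of 5 lists of related factors with shNBD1 (left) and with the inhibitors (right); filled points passed an adjusted p of 0.05 and lines are list medians. CNOT11 at -1.12, DCP2 at -0.98 and CPEB4 at -0.84 lie lowest with shNBD1, and no point is filled on the right.

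The steps before and beside decapping are described for comparison. The deadenylase list holds enzymes that shorten the poly(A) tail ahead of decapping and other proteins of their complexes. Of its 13 tested genes 2 fell and none rose with shNBD1, where 9.15% of all genes were called lower. The median of the 13 was -0.15. For 10 of the 13 the shNBD1 range lay wholly under that of the shRNA control, where 34.3% of all genes did so. CNOT11, a subunit of the CCR4-NOT complex, had 30.9 and 30.2 CPM with shNBD1, against 66.7 and 66.1 CPM in the shRNA control (-1.12 ± 0.08, adjusted p = 3.82e-05, edgeR), and CNOT8, a catalytic subunit, fell by 0.40 ± 0.12 (adjusted p = 0.0447). Unlike DCP2, CNOT11 had 64.8 and 71.6 CPM with the inhibitors, against 67.0 and 72.1 CPM in the inhibitor control, so the 6 libraries other than shNBD1 lay between 64.8 and 72.1 CPM. The effects on CNOT11 differed by -1.09 ± 0.11 (adjusted p = 0.000696). With the inhibitors the genes of this list of smallest p were PAN2 (-0.34 ± 0.14, adjusted p = 0.284, edgeR) and CNOT3 (0.17 ± 0.07, adjusted p = 0.289). Between the controls PAN2 was lower in the shRNA control (-0.62 ± 0.15, adjusted p = 0.0112). Of 17 genes of the exosome and the SKI complex, which degrade mRNA from the 3′ end, 1 fell and 1 rose with shNBD1. For 10 of the 17 the shNBD1 range also lay wholly under that of the shRNA control, against the same 34.3% of all genes. DIS3, a catalytic subunit, stood at -0.27 ± 0.07 (adjusted p = 0.0215) and EXOSC5, a ring subunit, at 0.50 ± 0.14 (adjusted p = 0.0277). With the inhibitors WDR61 (-0.22 ± 0.09, adjusted p = 0.252) and EXOSC4 (0.47 ± 0.19, adjusted p = 0.255) had the smallest p-values and none passed. For the difference between effects none passed, with DIS3 at -0.34 (adjusted p = 0.0614) and EXOSC10 at -0.22 (adjusted p = 0.218). Between the controls 6 of the 17 were called higher in the shRNA control, where 13.5% of all genes were, with DIS3 at 0.45, HBS1L at 0.35, EXOSC1 at 0.32 and EXOSC10 at 0.25. Of these, DIS3 passed under all 19 alternatives, HBS1L under 17, EXOSC1 under 15 and EXOSC10 under 14.

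The stability of the member calls with shNBD1 differed. DCP2 passed under all 19 alternatives run, with log2 fold changes from -1.01 to -0.95 and a largest adjusted p of 0.00344 (edgeR, without shNBD1 replicate 2). PATL1 passed under 15 of 19 and EDC3 under 11 of 19. Between the controls DCP2 also passed under all 19, with fold changes from 0.68 to 0.74.

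**Figure D4:**
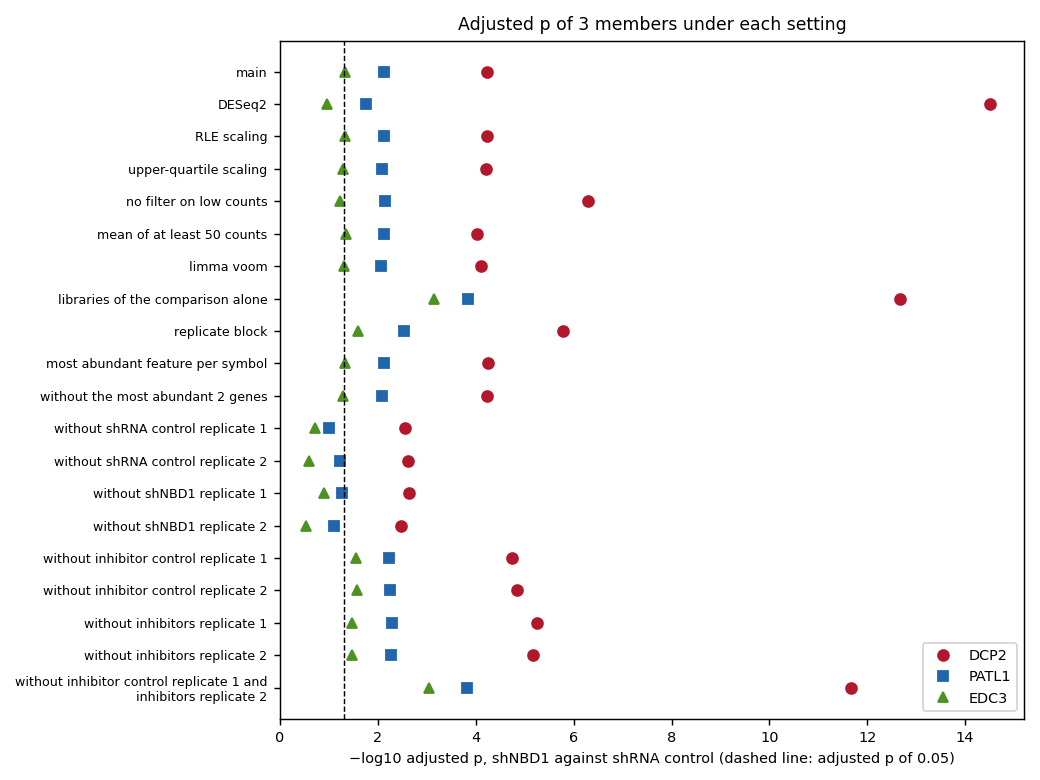
Adjusted p of DCP2, PATL1 and EDC3 for shNBD1 against the shRNA control, as −log10 (horizontal axis), under the main setting and each of 19 alternatives (rows); the dashed line marks 0.05. The DCP2 points all lie right of the line, and those of EDC3 fall on either side.

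Over the 8 libraries, the genes whose log2 CPM followed that of DCP2 most closely, of 10907 that averaged 50 counts or more, were SRSF10, a splicing regulator, TAX1BP1, an autophagy receptor, ATAD5, which unloads the sliding clamp after replication, CDC6, which licenses replication origins, and ZNF615, a zinc-finger gene. Their Pearson r ran from 0.972 to 0.981. SRSF10 had 115 and 113 CPM with shNBD1, against 146 and 144 CPM in the shRNA control. Of the members, EDC3 (r = 0.83) and XRN1 (r = 0.78) were nearest to DCP2, at ranks 380 and 630. For XRN1 the nearest included FRG1BP, a pseudogene, RBL1, a pocket protein of the cell cycle, CLTC, the clathrin heavy chain, and USP45, a deubiquitinase, with r from 0.958 to 0.975, and EDC3 was at rank 185 (r = 0.86). The libraries share group membership and scaling, so these values only describe how the profiles lie.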

How the data were processed

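Footprints of 8 libraries from 293T cells were analysed, 2 in each of 4 groups taken from the titles. Per the labels' protocols, cells were lysed with cycloheximide and footprints prepared with a commercial mammalian kit under some changes. Cutadapt, Bowtie and GRCh38 are named per the submitters' processing notes; no source used here gives their versions, the counter or the handling of multi-mapping reads. The authors deposited raw counts per transcript feature; a feature not listed was taken as 0. Here 18037 features were summed to 17179 symbols, of which 279 had several.

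Low genes were removed by filterByExpr (at least 10 counts, total of at least 15) and the rest scaled by TMM and fitted with a quasi-likelihood model in edgeR 4.0.16 (R 4.3.3), with group as the only term and 4 residual degrees of freedom. Alternatives used DESeq2 1.42.0, limma 3.58.1 (voom), other scalings and filters, a replicate block, and fewer libraries. SEs are those implied by the test. The steps were tested on simulated counts. Members and lists were chosen with earlier results of these data known. All members were named; from each list, up to 4 called genes of smallest p, or 2 as values; for likeness, the 5 genes of highest r, of which 1 is not reported here. Exceptions chosen after their values were seen are the markers named. LSM14B, CPEB1, NANOS3, CNOT9 and NEFL were not analysed here. Intervals and errors cover no amplification bias.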

Additional observations from a re-analysis of the deposited data

Results flagged for a closer look

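In the test of the difference between the effects of shNBD1 and the inhibitors, 7.44% of all genes were called (edgeR's quasi-likelihood test, adjusted p under the threshold). From the members and the related lists, 5 genes were called. Among the members these were DCP2, at -1.22 on the log2 scale, and PATL1, at -0.55. In the related lists they were LSM3 at -0.38, CPEB4 at -0.95 and CNOT11 at -1.09. By list this was 2 of 9 members, 1 of 7 in the Lsm1-7 ring, 1 of 13 in the recruiter list and 1 of 13 in the deadenylase list. It was 0 of 9 in the cofactor list and 0 of 17 exosome and SKI genes. CNOT11 and DCP2 passed under all 18 alternatives, CPEB4 under 16, PATL1 under 13 and LSM3 under only 6. Each was lower with shNBD1 than in its control, and none passed with the inhibitors. For DCP2 and CPEB4 the control groups themselves differed, by 0.72 and 0.37. That control difference passed under all 19 alternatives for DCP2 and under 15 for CPEB4.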

How the results depend on the processing

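Levels per coding length were not run. The DCP2 calls with shNBD1, between the controls and for the difference held under every alternative run for them (19, 19 and 18). With 3 members called with shNBD1, leaving out single libraries gave 1 to 3, with DCP2 alone left without either library of either group, and leaving out both inhibitor control replicate 1 and inhibitors replicate 2 (chosen after seeing the data, as were all values "without both" below) gave 4. With the inhibitors the count was 0 in all alternatives but that one, which gave 1, DCP2. For the difference the 2 members became 1 with DESeq2, 1 to 3 without single libraries and 4 without both. Between the controls the 3 became 1 to 4 without single libraries and 6 without both. The replicate block gave 4 members with shNBD1 (XRN1 beside the 3), 0 with the inhibitors, 4 for the difference and 4 between the controls, and -0.98 for DCP2 with shNBD1. The labels do not say what a number marks. Deviations of same-numbered libraries correlated at 0.42 between the inhibitors and their control, 0.161 and 0.133 between shNBD1 and the inhibitor control and inhibitors, and 0.0152 or less in the other 3 pairs of groups, so pairing is not established. Over all genes, 2440 calls with shNBD1 became 532 to 5314, 16 with the inhibitors 0 to 930, 990 for the difference 187 to 3738, and 3611 between the controls 1077 to 5673. Among the cofactors, the Lsm1-7 ring and the recruiters, the 7, 0, 2 and 7 genes called in these comparisons became 1 to 12, 0 to 1, 0 to 9 and 3 to 9.

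Signs turned only for genes not called in that comparison, and the cause was not tested. With shNBD1, leaving out single libraries gave DCP1A -0.14 to 0.0964 and DCP1B -0.0803 to 0.354. With the inhibitors DCP1A stood at -0.00566 with upper-quartile scaling, -0.00525 without the filter, -0.00234 with voom and -0.00417 without the most abundant 2 genes. Without single libraries it ran from -0.0904 to 0.0846, EDC4 from -0.0761 to 0.196, EIF4ENIF1 from -0.281 to -0.0086, PAN2 from -0.545 to -0.093 and RC3H2 from -0.501 to -0.103. Without both, DCP1A was -0.0505, EDC4 -0.187, EIF4ENIF1 0.00958, PAN2 0.0501 and RC3H2 0.0364. For the difference, leaving out single libraries gave DCP1A -0.136 to 0.101, EDC4 -0.286 to -0.0099 and EIF4ENIF1 -0.0767 to 0.194, and without both DCP1A was 0.0325, EDC4 0.0989 and EIF4ENIF1 -0.0959. Between the controls it gave DCP1A -0.131 to 0.106, EDC4 -0.205 to 0.0461, PATL1 -0.048 to 3.26e-05 and EIF4ENIF1 -0.0646 to 0.209, and without both DCP1A was 0.0166 and EDC4 -0.207. With 2 libraries a group, and 152 counts for the lowest member value, small changes of DCP1A and DCP1B were not detectable at this depth.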
